A study of Sus scrofa with 36 samples.

Results

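Clonal pig induced pluripotent stem cell (iPSC) lines were compared at the level of RNA, with 3 libraries of clone 1 set against 4 libraries of clone 3. These are 7 of the 36 bulk RNA-seq libraries of a study whose title describes pig iPSCs free of reprogramming transgenes. The libraries were chosen by their labels, clone 1 as replicates 2, 3 and 4 and clone 3 as replicates 1, 2, 3 and 4. The status label of clone 1 reads PiPS-EP1 minusPD c4 p11 and that of clone 3 reads PiPS-EP5 minusPD minusA83 c18 p15. The 4 libraries of clone 2 (PiPS-EP5 minusPD minusA83 c12 p10) and 4 libraries of pig fibroblasts were used for context. RNA of the Y-linked gene EIF1AY was present in both clones and at 0 in the fibroblasts. The fibroblasts are therefore not treated as the cells the clones came from. Each line is 1 clone, so clone, derivation and the culture named by the label cannot be told apart. No label says that the replicates were separate cultures, so p-values measure the spread between these libraries, which may be technical.

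iPSCs are somatic cells returned to a state in which they divide without limit and can form all tissues of the body. A change in the number of copies of a chromosome, which is known from human pluripotent cells, moves many neighbouring genes a little in 1 direction, whereas the silencing or activation of single genes, such as imprinted genes that are normally read from only 1 parental copy, moves 1 gene by a large factor. Pig chromosome 17 carries many genes found on human chromosome 20, whose long arm is often gained by cultured human pluripotent cells. DNA copy number was not analysed here, so the chromosome is described by its RNA.

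Clone 1 libraries held 24314161 to 28630830 estimated counts and clone 3 libraries 30621925 to 38055874. Spearman's correlation was taken over the genes tested, on log2 counts scaled to library size. It was 0.958 to 0.964 among the clone 1 libraries, 0.982 to 0.996 among the clone 3 libraries and 0.954 to 0.971 between the clones. Replicates 2 and 3 of clone 3 were the closest pair, with a chi-square per degree of freedom of 4.91 over genes against 42.7 to 73.0 for the other pairs within a clone. Their difference was above sampling noise and they were counted as 2 replicates, but whether they are independent is not known, and summed into 1 library they left 450 of the 982 calls described next. By Spearman's correlation (0.982 to 0.985) and by genes with a count, replicate 1 of clone 3 stood apart from the other 3. By chi-square it did not, at 42.7 and 47.9 from replicates 2 and 3, against 45.0 and 43.2 for replicate 4. Detection differed, with 13220 to 13738 genes having a count in clone 1 and 14351 to 15880 in clone 3. At equal depth the ranges were 13199 to 13738 in clone 1 and 14251 to 15645 in clone 3. TPM is a level scaled to gene length and library size. At 1 TPM or more there were 11268 to 11417 genes in clone 1 and 11391 to 11599 in clone 3.

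Both clones carried the pluripotency factors. POU5F1, the transcription factor also called OCT4, was at 1173, 935 and 832 TPM in clone 1 and at 941, 853, 806 and 781 TPM in clone 3. NANOG, another core factor, was at 63.6, 86.0 and 111.7 TPM in clone 1 and at 88.2, 99.1, 106.6 and 129.9 TPM in clone 3. SOX2, their partner on DNA, was at 124.1, 134.6 and 96.8 TPM in clone 1 and at 118.8, 93.7, 93.3 and 83.1 TPM in clone 3. The ranges of the clones overlapped for these 3 genes, whose log2 differences, clone 1 minus clone 3, were 0.19 ± 0.18, -0.25 ± 0.23 and 0.27 ± 0.35 (SE) with adjusted p = 0.582, 0.559 and 0.701 by edgeR's quasi-likelihood test. LIN28A, an RNA-binding protein of early embryonic cells, was at 541, 906 and 1134 TPM in clone 1 and at 1293, 1400, 1348 and 1260 TPM in clone 3. Its ranges did not overlap, but it did not pass the test, with a log2 difference of -0.64 ± 0.29 (edgeR, adjusted p = 0.198). The 25 fibroblast genes in the table summed to 1811 to 1987 TPM in clone 1, 1445 to 1893 TPM in clone 3 and 71645 to 88062 TPM in fibroblasts.

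Of 14660 genes tested, 982 (6.7%) differed between the clones at an adjusted p under 0.05, with 457 higher (3.12%) and 525 lower (3.58%) in clone 1. The median log2 difference over all genes tested was -0.03. The count varied with the library left out. It was 679, 657 and 1332 without clone 1 replicates 2, 3 and 4, and 1132, 457, 435 and 553 without clone 3 replicates 1, 2, 3 and 4. DESeq2 called 1877 genes.

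Chromosome 17 differed as a whole. Its genes were lower in clone 1, with a median log2 difference of -0.55 over 445 tested genes and an interquartile range of -0.91 to -0.19, so that clone 3 was 1.47-fold higher at the median gene. By edgeR's test none of its genes passed as higher in clone 1 (DESeq2 called 0, limma on log2(TPM + 1) called 1, and 5 had an unadjusted p under 0.05), and 96 passed as lower, which is 21.6% of those tested, against 3.01% lower among the 13940 genes tested on other chromosomes. In all, 383 of the 445 genes (86.1%) had a negative difference. The libraries of the clones did not overlap, with clone 1 below clone 3, for 186 chromosome 17 genes, and with clone 1 above for 2, against 10.8% and 10.7% of genes on other chromosomes. The medians of the other 19 chromosomes lay between -0.09 and 0.02. Without clone 3 replicate 2 the lower calls on chromosome 17 numbered 63 and without replicate 3 they numbered 58, while the median lay between -0.60 and -0.52 whichever library was left out.

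The libraries that stood apart from clone 2 were those of clone 3. Measured against clone 2, the median chromosome 17 gene, less the median of all other genes, was 0.041, 0.055 and 0.005 on the log2 CPM scale (counts scaled to library size) in the clone 1 libraries and 0.566, 0.567, 0.538 and 0.539 in the clone 3 libraries. The fibroblast libraries lay between -0.002 and 0.063 on the same measure. Every clone 3 library was thus above every library of the other groups, and the clone 1 libraries were within the range of the fibroblasts. Chromosome 17 took 2.42%, 2.42% and 2.41% of all counts in the clone 1 libraries and 3.52%, 3.55%, 3.57% and 3.71% in the clone 3 libraries. The Wilson 95% intervals, which cover counting error only, reached from 2.40% to 2.42% over clone 1 and from 3.52% to 3.71% over clone 3. The share was 2.44% to 2.58% in clone 2, whose label differs from that of clone 3 only in its c and p numbers, and 1.70% to 1.97% in fibroblasts.

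**Figure D1:**
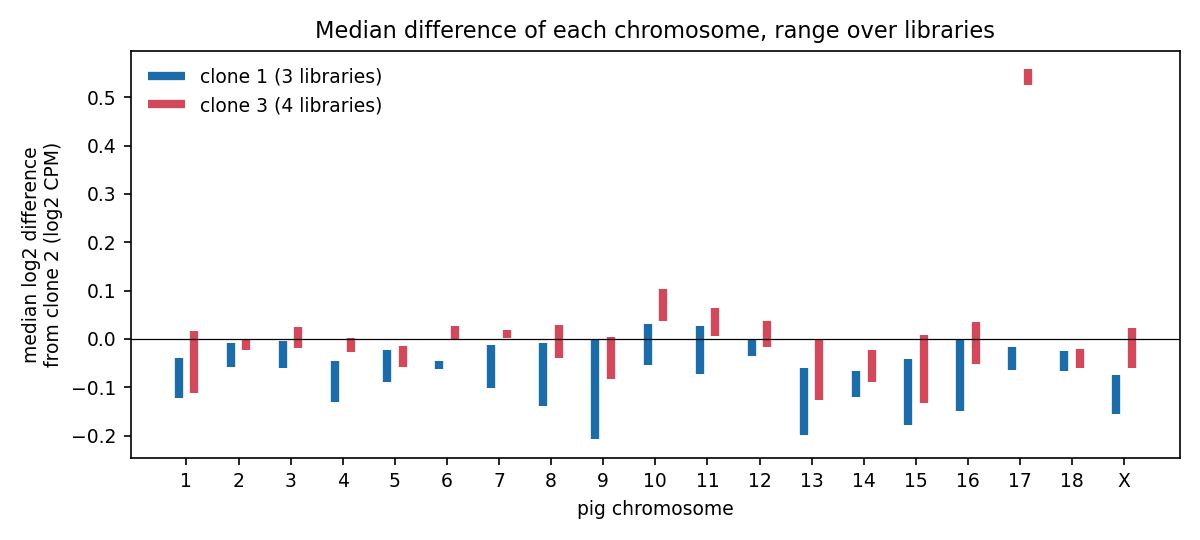
The vertical axis gives the median log2 difference from clone 2 (log2 CPM) and the horizontal axis the pig chromosomes, with each bar running from the lowest to the highest library of clone 1 (blue, 3 libraries) or clone 3 (red, 4 libraries). On chromosome 17 the clone 1 libraries sit between -0.06 and -0.02 and the clone 3 libraries between 0.52 and 0.56, and on each other chromosome drawn both clones lie between -0.21 and 0.10.

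The shift ran along the chromosome from end to end. Cut into windows of 10 Mb (Sscrofa11.1), chromosome 17 had 7 windows with medians from -0.63 to -0.39, and these were the 7 windows of largest size among 244 windows of at least 10 tested genes. The median was -0.62 in the first window over 29 genes, -0.63 in the window from 40000001 to 50000000 over 84 genes and -0.39 in the last over 46 genes. Windows of other chromosomes had medians between -0.39 and 0.31. By mean TPM in the higher clone, the medians on chromosome 17 were -0.62 under 1 TPM, -0.56 at 1 to 10, -0.51 at 10 to 100 and -0.55 at 100 or more. On other chromosomes the medians of the same classes were -0.47, -0.03, 0.02 and 0.03, so the median of genes under 1 TPM was negative there as well. Runs of at least 3 neighbouring tested genes with calls in the same direction numbered 6 on chromosome 17, holding 19 genes, and 1 elsewhere. The longest of the 6 was ZMYND8, NCOA3, SULF2 and PREX1, at chr17:49258543-50550402.

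**Figure D2:**
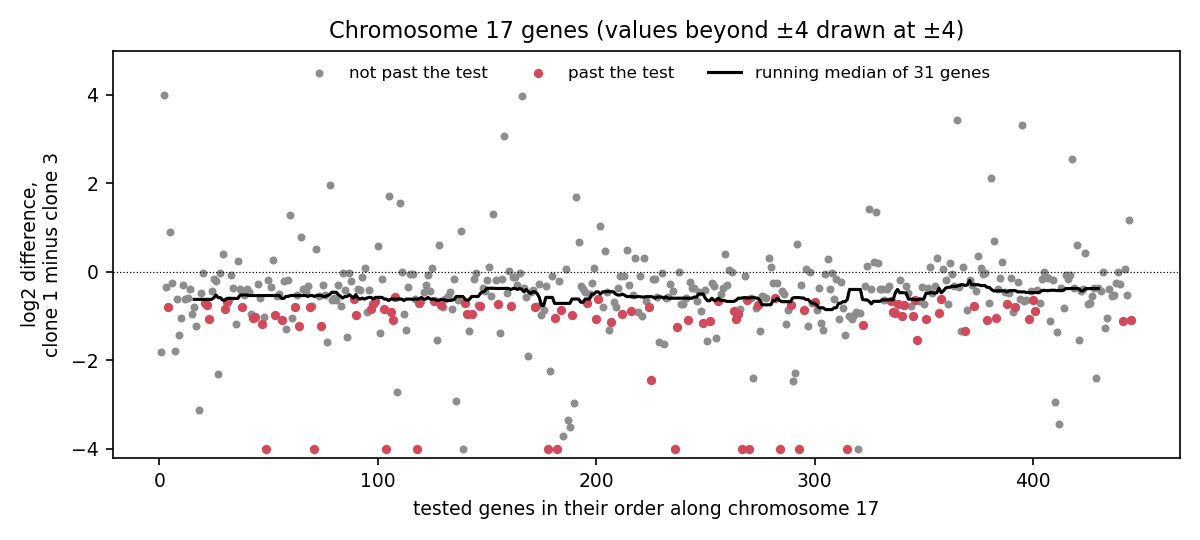
Each point is 1 of the 445 tested genes in its order along chromosome 17 (horizontal axis) with its log2 difference, clone 1 minus clone 3 (vertical axis, values beyond -4 or 4 drawn at the limit), red where it passed the test and grey where it did not. The running median of 31 genes, in black, stays below 0 over its length, and all 96 red points lie below 0.

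Among the chromosome 17 genes called lower in clone 1 were members of several lists. DNMT3B, a DNA methyltransferase that sets new methylation marks (chr17:36345715-36386076), was at 1093, 1086 and 1218 TPM in clone 1 and at 2129, 2266, 2305 and 2697 TPM in clone 3. Every clone 3 library was above every clone 1 library, and the log2 difference was -1.06 ± 0.16 (edgeR, adjusted p = 0.000886). PCNA, the sliding clamp of DNA replication (chr17:14137746-14142584), was at 153, 199 and 296 TPM in clone 1 and at 332.5, 502, 492 and 496 TPM in clone 3, again without overlap, with a log2 difference of -1.09 ± 0.22 (edgeR, adjusted p = 0.00829). GNAS, an imprinted gene in mouse and human that encodes a G protein subunit, was at 584, 595 and 649 TPM in clone 1 and at 890.2, 1042, 1020.1 and 1104 TPM in clone 3 (log2 difference -0.72 ± 0.16, edgeR adjusted p = 0.0142). SFRP1, a secreted inhibitor of Wnt signals, was at 43.7, 56.5 and 65.2 TPM in clone 1 and at 90.1, 97.3, 95.8 and 109.5 TPM in clone 3 (log2 difference -0.84 ± 0.14, edgeR adjusted p = 0.00166). These 4 genes kept their call whichever library was left out. Clone 2 held DNMT3B at 1304 ± 100 TPM and PCNA at 272 ± 22 TPM (SD, n = 4), nearer clone 1. It held GNAS at 927 ± 89 TPM, nearer clone 3, and SFRP1 at 126 ± 8.1 TPM, above every clone 3 library.

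Of 30 genes of the cell cycle and DNA replication, 3 were lower in clone 1, and all 3 were among the 9 on chromosome 17, where 21.6% of all tested genes were called lower, against 3.01% elsewhere. They were PCNA, the mitotic kinase AURKA (log2 difference -0.77 ± 0.20) and its activator TPX2 (-0.86 ± 0.24). None of the 21 on other chromosomes passed edgeR's test (DESeq2 called 1, limma called 0, and 2 had an unadjusted p under 0.05), and their median log2 difference was -0.05. AURKA lost its call in 5 of the 7 fits that left out 1 library and TPX2 in all 7.

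Of 21 tested pig genes that belong to the human chromosome 20 gain list, 6 were lower in clone 1, with a median of -0.50. All 21 lie on chromosome 17, where 21.6% of tested genes were called lower and the median was -0.55. None was higher by edgeR, at an unadjusted p under 0.05 as well, or by DESeq2 or limma (0 each). The 6 were DNMT3B, TPX2, PDRG1 (-0.98 ± 0.14), the kinesin subunit KIF3B (-0.71 ± 0.15), the microtubule-binding MAPRE1 (-0.61 ± 0.12) and ID1, a target of BMP signals (-1.05 ± 0.29). BCL2L1, the survival gene most often named for the human gain, was at 205, 174 and 131 TPM in clone 1 and at 197, 156, 154 and 163 TPM in clone 3. Its libraries overlapped, and its log2 difference was -0.21 ± 0.22 (edgeR, adjusted p = 0.621). ID1 lost its call in 6 of the 7 fits that left out 1 library.

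Single-gene differences on the chromosome were separated from the shared shift by testing each gene against the chromosome median. Of the 96 genes called lower, 83 did not pass this second test and 13 did. In all 21 genes departed, 8 upward and 13 downward, and 8 of the 13 were at 0 in every clone 1 library. DNMT3B lay 0.51 ± 0.15 below the median (edgeR, adjusted p = 0.0625) and PCNA 0.54 ± 0.22 below (edgeR, adjusted p = 0.149), and neither passed. Across all genes, 828 (5.65%) passed once chromosome 17 was set against its own median. The count of 21 was 12 without clone 1 replicate 3, 42 without clone 1 replicate 4, 3 without clone 3 replicate 2, 5 without clone 3 replicate 3 and 12 without clone 3 replicate 4.

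Among genes of at least 5 TPM in the higher clone, 8 departed upward, with log2 differences between the clones of -0.01 to 0.71, none of which passed the first test. PMEPA1, which encodes a membrane protein that limits TGF-beta signals, was at 5.95, 9.51 and 3.31 TPM in clone 1 and at 3.75, 3.59, 3.92 and 4.19 TPM in clone 3, and lay 1.26 ± 0.28 above the chromosome median (edgeR, adjusted p = 0.0159). SYS1, a Golgi membrane protein, was at 58.5, 42.8 and 49.5 TPM in clone 1 and at 49.2, 33.4, 36.5 and 44.6 TPM in clone 3, and lay 0.84 ± 0.18 above (edgeR, adjusted p = 0.0121). The other 6 were STX16, ATP9A, COMMD7, NSFL1C, OSBPL2 and RBM12, at 0.54 to 0.77 above the median. PFDN4, a subunit of the chaperone prefoldin, and PHF20, a chromatin reader, departed downward among genes of that level. PFDN4 was at 91.7, 107.3 and 71.8 TPM in clone 1 and at 189, 242, 264 and 213 TPM in clone 3, and lay 0.79 ± 0.21 below (edgeR, adjusted p = 0.0408). PHF20 was at 29.8, 34.2 and 34.6 TPM in clone 1 and at 66.9, 69.0, 69.8 and 71.1 TPM in clone 3, and lay 0.53 ± 0.14 below (edgeR, adjusted p = 0.0401). Each of these 10 departures lost its call in 2 to 6 of the 7 fits that left out 1 library, SYS1 without clone 3 replicate 2 or 3 and PMEPA1 without clone 1 replicate 3 or clone 3 replicate 2.

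**Figure D3:**
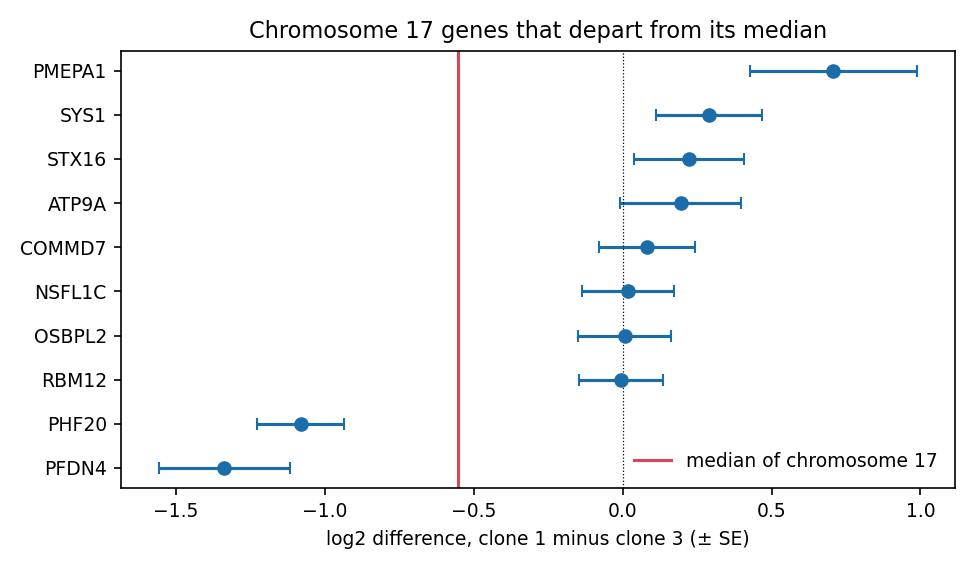
Points give the log2 difference, clone 1 minus clone 3 (horizontal axis), of the 10 genes of at least 5 TPM that departed from the chromosome 17 median, and bars give its SE. The red line is that median, at -0.55, with 8 genes to its right and PHF20 and PFDN4 to its left.

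The lower-level departures included L3MBTL1, which encodes a chromatin-compacting protein and is imprinted in human. It was at 0 in all 3 clone 1 libraries and at 0.32, 0.56, 0.77 and 0.98 TPM in clone 3, at least 56.4-fold lower in clone 1 when 3 counts over the group are taken as the floor (edgeR, adjusted p for the departure = 0.00831). TNNC2, a troponin of fast muscle, was at 0 in clone 1 and at 0.68, 4.91, 3.15 and 2.04 TPM in clone 3, at least 15.5-fold lower. Levels this low touch the difference in detection between the clones, whose part in these calls was not tested.

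Off chromosome 17, 447 genes were higher and 419 lower in clone 1 of the 13940 tested, so the directions were nearly even there. The count of 866 was 577 without clone 1 replicate 3, 386 without clone 3 replicate 2, 371 without clone 3 replicate 3 and 476 without clone 3 replicate 4. The split varied with level. Among genes under 1 TPM in the higher clone, 15 were higher and 162 lower, and among those of 10 to 100 TPM 223 were higher and 107 lower. Of all 525 lower calls, 138 were at 0 in every clone 1 library, at 0.04 to 4.84 TPM in clone 3 with a median of 0.391, whereas 5 of the 457 higher calls were at 0 in every clone 3 library. In clone 1, 1958 to 2330 genes had a level above 0 and under 1 TPM, against 2958 to 4394 in clone 3. With the test limited to genes of at least 1 TPM on average, a limit chosen after seeing the data, 462 genes off chromosome 17 were higher and 248 lower.

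**Figure D4:**
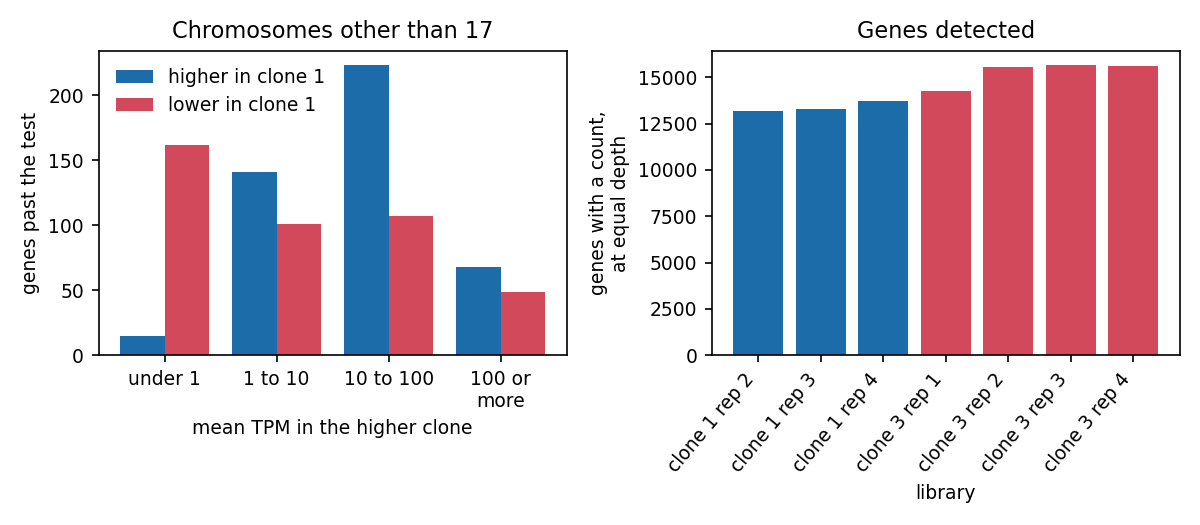
The left panel counts genes off chromosome 17 that passed the test, higher (blue) or lower (red) in clone 1, by mean TPM in the higher clone, with 15 higher and 162 lower under 1 TPM. The right panel gives the genes with a count in each library thinned to the smallest, 13199 to 13738 in clone 1 (blue) and 14251 to 15645 in clone 3 (red).

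A few genes were on in clone 1 and off in clone 3. By the rule of at least 10 TPM in every library of 1 clone and under 1 TPM in every library of the other, NDN and TCEAL2 were on in clone 1 alone, and no gene was on in clone 3 alone. NDN encodes necdin, a growth-restraining protein, and is an imprinted gene in human and mouse, read from the paternal copy (chr1:142412688-142413665). It was at 83.3, 45.6 and 29.5 TPM in clone 1 and at 0.06, 0.27, 0.33 and 0.34 TPM in clone 3, a log2 difference of 7.69 ± 0.65 (edgeR, adjusted p = 4.29e-06). Clone 2 held it at 44.2 ± 5.3 TPM (SD, n = 4) and fibroblasts at 1.02 ± 1.2 TPM (SD, n = 4), so clone 3 was the iPSC line without it. Its imprinted neighbour in human, MAGEL2, was at 1.30, 0.59 and 0.45 TPM in clone 1 and at 2.85, 1.72, 2.01 and 2.10 TPM in clone 3 (log2 difference -1.47 ± 0.62, edgeR adjusted p = 0.162), and UBE3A, a ubiquitin ligase of the same region, was at 93.8 to 98.5 TPM in clone 1 and 85.9 to 126.4 TPM in clone 3. These 2 neighbours were named after their values were seen.

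TCEAL2, an X-linked gene of the elongation factor-like family (chrX:83577181-83582946), was at 53.2, 38.9 and 43.9 TPM in clone 1 and at 0, 0.96, 0.02 and 0.13 TPM in clone 3 (log2 difference 7.43 ± 0.75, edgeR adjusted p = 2.31e-05). Clone 2 had 47.4 ± 21.9 TPM and fibroblasts 0.02 ± 0.034 TPM (SD, n = 4 each).

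A lower bar of at least 1 TPM against under 0.1 TPM, added after values were seen, gave 5 genes on in clone 1 alone and 4 on in clone 3 alone. Of the 5, LOC110258110, on an unplaced scaffold, did not pass the test (edgeR, adjusted p = 0.0598) and was at 0 in every clone 3 library. IRS2, an adaptor of the insulin receptor, was at 3.82, 5.05 and 5.79 TPM in clone 1 and at 0.05, 0, 0.01 and 0.04 TPM in clone 3 (log2 difference 7.69 ± 0.50, edgeR adjusted p = 3.45e-07), with 5.6 ± 1.4 TPM in clone 2. PEG3, a zinc finger gene read from the paternal copy in mouse and human, was at 2.82, 2.13 and 2.35 TPM in clone 1, where it had 941 counts, and in clone 3 it had 3 counts in all. The ratio, clone 1 over clone 3, was 540 with an exact 95% counting interval of 184 to 2621 (edgeR, adjusted p = 3.61e-05), and clone 2 and fibroblasts were near 0 as well. LRRC6, a gene of cilium assembly, had 383 counts in clone 1 and 2 in clone 3, and PRKCB, a protein kinase C, had 461 in clone 1 and 2 in clone 3. On in clone 3 alone were COQ10A, a coenzyme Q binding protein, and 3 genes without a name. COQ10A was at 0 in every clone 1 library and at 2.54, 2.23, 1.74 and 2.13 TPM in clone 3, at least 40.1-fold lower in clone 1 (edgeR, adjusted p = 0.00272), with 2.2 ± 0.4 TPM in clone 2. The calls of NDN, TCEAL2, IRS2, PEG3, LRRC6, PRKCB and COQ10A were kept under all 19 alternatives tried, the minimum fold of 2 included.

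**Figure D5:**
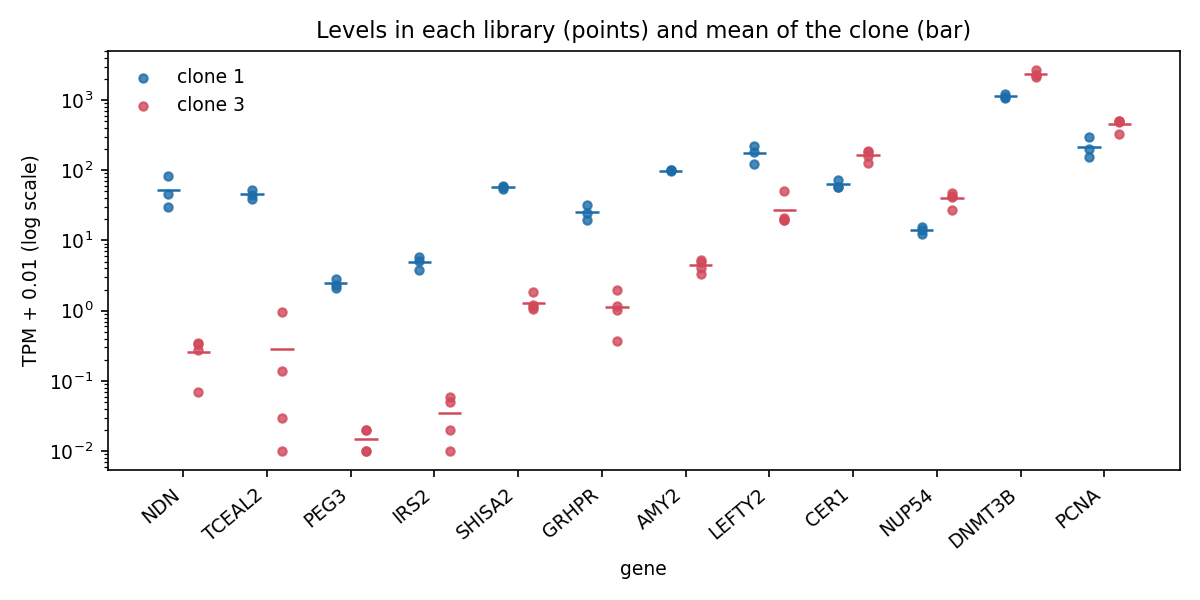
Points give TPM + 0.01 (vertical axis, log scale) in each library of clone 1 (blue) and clone 3 (red) for 12 genes, and bars give the mean of the clone. NDN, TCEAL2, PEG3 and IRS2 sit above 2 TPM in every clone 1 library and below 1 TPM in every clone 3 library, while DNMT3B and PCNA differ by about 1 on the log2 scale.

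The next largest differences off chromosome 17 were in metabolic and membrane genes. SHISA2, an endoplasmic reticulum protein that holds back FGF and Wnt receptors in frog, was at 57.6, 53.4 and 59.7 TPM in clone 1 and at 1.13, 1.05, 1.18 and 1.83 TPM in clone 3 (log2 difference 5.45 ± 0.67, edgeR adjusted p = 0.000142). Clone 2, at 0.46 ± 0.48 TPM, was low as well. AMY2, an amylase gene, was at 100.0, 100.5 and 96.1 TPM in clone 1 and at 5.01, 4.04, 5.30 and 3.35 TPM in clone 3 (log2 difference 4.43 ± 0.44, edgeR adjusted p = 1.97e-05), with 20.9 ± 8.7 TPM in clone 2. Amylase genes are near-identical copies, so reads may be split between them. GRHPR, which clears glyoxylate, showed the other arrangement, at 19.8, 32.4 and 24.9 TPM in clone 1, 1.96, 1.17, 1.02 and 0.36 TPM in clone 3 and 29.4 ± 2.1 TPM in clone 2 (log2 difference 4.47 ± 0.40, edgeR adjusted p = 6.95e-06).

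Also among the 15 highest were CADM1, a cell adhesion molecule, the glutathione transferase GSTO1, the protocadherin PCDH11X, the keratin KRT79, the stretch-responsive ANKRD1, the clotting initiator F3, the cytochrome CYP1A1, the potassium channel subunit KCNF1 and the secreted peptide precursor VGF, with log2 differences from 1.76 to 3.05. CADM1 was at 76.1, 171.1 and 163.7 TPM in clone 1 and at 35.3, 18.5, 17.8 and 27.4 TPM in clone 3. Of these, KCNF1 lost its call without clone 3 replicate 2 or 4. The 1 run of neighbouring calls off chromosome 17 was also of keratins, 5 genes at chr5:17736016-17868397 that include KRT6A (1.03 ± 0.22) and KRT5 (1.53 ± 0.38), all higher in clone 1. Keratin genes are similar in sequence, and reads may be shared between them.

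The lowest genes off chromosome 17 differed by less. NUP54, a nuclear pore protein, was at 13.9, 12.2 and 15.5 TPM in clone 1 and at 27.4, 43.2, 41.8 and 48.1 TPM in clone 3 (log2 difference -1.50 ± 0.20, edgeR adjusted p = 0.000307). ARL3, a small GTPase of the cilium, was at 52.0, 77.7 and 51.4 TPM in clone 1 and at 106.3, 155.6, 173.2 and 159.7 TPM in clone 3 (-1.30 ± 0.29, edgeR adjusted p = 0.0132). TIMM9, a chaperone of mitochondrial import, had the largest decrease among the 15 lowest genes of at least 10 TPM (-1.68 ± 0.37), and lost its call without clone 1 replicate 2. RFESD, a protein with an iron-sulfur domain, followed the same direction (-1.34 ± 0.29). The libraries of the clones did not overlap for these 4 genes, with clone 1 lower, because the rule that named them required it. Of all genes tested on other chromosomes, 10.8% had no overlap with clone 1 lower.

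Nodal signalling is the branch of TGF-beta signalling that patterns the early embryo and supports the primed pluripotent state, and its secreted inhibitors moved in opposite directions. Of 23 tested genes of the nodal and TGF-beta list, 5 were higher and 2 lower in clone 1, against 3.12% and 3.58% over all genes tested, with a median log2 difference of 0.17. LEFTY2, a nodal inhibitor and itself a nodal target, was at 222, 181 and 124 TPM in clone 1 and at 50.3, 20.7, 19.8 and 19.4 TPM in clone 3 (log2 difference 2.66 ± 0.46, edgeR adjusted p = 0.00268). CER1, an inhibitor of nodal, BMP and Wnt ligands, was at 57.1, 58.5 and 73.9 TPM in clone 1 and at 126.3, 161.9, 183.3 and 186.4 TPM in clone 3 (-1.39 ± 0.19, edgeR adjusted p = 0.000388). TDGF1, the nodal co-receptor, was at 8.96, 7.19 and 13.3 TPM in clone 1 and at 18.3, 22.6, 23.9 and 23.5 TPM in clone 3 (-1.18 ± 0.27, edgeR adjusted p = 0.0199). LEFTY2, CER1 and TDGF1 did not overlap between the clones, which was also required of the highest and lowest genes they are among.

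Within the same list, the signal transducer SMAD3 (1.03 ± 0.20), the inhibitory SMAD7 (1.45 ± 0.25) and the activin-binding FST (0.60 ± 0.14) were higher in clone 1. FST was at 233, 268 and 244 TPM in clone 1 and at 166.2, 170.1, 166.4 and 148.6 TPM in clone 3. TDGF1 lost its call without clone 1 replicate 3 or clone 3 replicate 2 or 3, and FST without clone 1 replicate 3.

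Of 16 tested genes of the BMP list, 3 were higher and 2 lower in clone 1, against 3.12% higher and 3.58% lower over all genes tested, and 1 of the 2 lower genes lay on chromosome 17. ID3, an inhibitor of differentiation factors, was at 833, 1296 and 1312 TPM in clone 1 and at 589, 302, 336 and 330 TPM in clone 3 (log2 difference 1.54 ± 0.35, edgeR adjusted p = 0.0163). ID4 of the same family was at 29.98, 56.3 and 54.9 TPM in clone 1 and at 23.6, 17.2, 18.8 and 25.4 TPM in clone 3 (1.14 ± 0.23, edgeR adjusted p = 0.00765), and SMAD7 was the third. Their relative ID1, on chromosome 17, was lower in clone 1, at 15.4, 23.9 and 20.7 TPM against 31.3, 34.4, 39.5 and 60.5 TPM in clone 3, and lay 0.49 ± 0.29 below the chromosome median (edgeR, adjusted p = 0.331). Clone 2 held ID1 at 42.9 ± 8.8 TPM (SD, n = 4), near the clone 3 level. MSX1 was lower in clone 1 as well, at 0.05, 0.04 and 0 TPM in clone 1 and at 1.19, 0.92, 0.62 and 1.12 TPM in clone 3. ID3 lost its call without clone 1 replicate 3 or clone 3 replicate 2, 3 or 4.

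Among 17 core pluripotency genes, LIN28B was higher and TDGF1, DNMT3B and MYCN were lower in clone 1. Over all genes tested, 3.12% were higher and 3.58% lower. LIN28B, which blocks maturation of let-7 microRNAs, was at 130, 150 and 126 TPM in clone 1 and at 83.6, 70.4, 72.6 and 69.98 TPM in clone 3 (log2 difference 0.89 ± 0.18, edgeR adjusted p = 0.00829). MYCN, a growth-promoting transcription factor, was at 13.0, 12.8 and 9.13 TPM in clone 1 and at 23.2, 19.1, 19.9 and 26.9 TPM in clone 3 (-0.93 ± 0.27, edgeR adjusted p = 0.0496). None of 11 genes linked to the naive state passed edgeR's test (DESeq2 called 2, limma called 0, and 2 had an unadjusted p under 0.05). Of 13 linked to the primed state, the transcription factor OTX2 was the 1 gene called, at 27.4, 31.7 and 21.6 TPM in clone 1 and at 45.3, 43.0, 47.6 and 59.8 TPM in clone 3 (-0.89 ± 0.26, edgeR adjusted p = 0.0496). MYCN and OTX2 lost their call in each of the 7 fits that left out 1 library. TFAP2C, a naive-state factor on chromosome 17, was at 21.1, 24.9 and 26.4 TPM in clone 1 and at 22.8, 19.5, 23.5 and 24.8 TPM in clone 3 (0.08 ± 0.27, edgeR adjusted p = 0.896).

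Of 27 imprinted genes tested, NDN and PEG3 were higher and L3MBTL1 and GNAS lower in clone 1, the lower pair both on chromosome 17, and 23 did not pass. Over all genes tested, 3.12% were higher and 3.58% lower, which also holds for the lists that follow. Of 12 genes of the DNA methylation machinery, DNMT3B was lower and the demethylating enzyme TET3 higher (0.50 ± 0.14), the call of TET3 being lost in 5 of the 7 fits that left out 1 library. Of 12 germline genes, KIT, the receptor of stem cell factor, was the 1 gene called, at 7.97, 11.7 and 6.14 TPM in clone 1 and at 3.69, 3.73, 3.88 and 4.26 TPM in clone 3 (1.14 ± 0.25), and lost its call without clone 1 replicate 3.

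Of 25 tested genes of the fibroblast list, 6 were higher and 3 lower in clone 1, against 3.12% and 3.58% over all genes tested. In both iPSC clones the list's summed level was far under that of fibroblasts. COL1A1, the main fibrillar collagen, was at 185, 199.9 and 185 TPM in clone 1, at 95.8, 98.1, 95.4 and 99.3 TPM in clone 3 and at 9634 ± 1091 TPM in fibroblasts (SD, n = 4), and its log2 difference was 0.96 ± 0.17 (edgeR, adjusted p = 0.00284). FN1, which encodes fibronectin, was at 139, 135 and 107 TPM in clone 1 and at 67.7, 62.3, 60.2 and 63.2 TPM in clone 3 (1.00 ± 0.21). The other 4 were COL5A1 (0.84 ± 0.16), COL5A2 (1.02 ± 0.21), THBS1 (0.66 ± 0.14) and VIM (0.58 ± 0.16). PDGFRB, the fibroblast receptor, was at 0 in all clone 1 libraries and at 0.33, 0.30, 0.25 and 0.40 TPM in clone 3, at least 23.4-fold lower in clone 1, and TWIST1 and SNAI2 were lower at under 1 TPM. VIM lost its call in 5 of the 7 fits that left out 1 library and SNAI2 without clone 1 replicate 2. In bulk libraries, fewer cells of a type and less RNA per cell cannot be told apart.

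Some markers of differentiated lineages passed the test. Of 8 neuroectoderm genes tested, 1 was higher and 2 were lower in clone 1. Of 10 endoderm and 6 trophectoderm genes, 1 each was lower. Over all genes tested, 3.12% were higher and 3.58% lower. NES, an intermediate filament of neural progenitors, was at 185, 179 and 181 TPM in clone 1 and at 79.8, 80.1, 80.5 and 68.4 TPM in clone 3 (log2 difference 1.22 ± 0.18, edgeR adjusted p = 0.00065). OTX1, a forebrain factor, was lower in clone 1 and under 1 TPM in every library of both clones. HNF4A, an endoderm factor on chromosome 17, was at 0.02, 0 and 0.05 TPM in clone 1 and at 0.58, 0.33, 0.36 and 0.51 TPM in clone 3. TFAP2A of trophectoderm was at 0.05, 0.08 and 0.41 TPM in clone 1 and at 1.11, 0.85, 0.87 and 0.91 TPM in clone 3. TFAP2A lost its call without clone 1 replicate 2 or 3, HNF4A in 5 and OTX1 in 6 of the 7 fits that left out 1 library.

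The remaining lists held few calls. Over all genes tested, 3.12% were higher and 3.58% lower in clone 1. In glycolysis, LDHA, which makes lactate, was at 476, 518 and 597 TPM in clone 1 and at 353.8, 330.3, 318.5 and 331.0 TPM in clone 3 (0.68 ± 0.12, edgeR adjusted p = 0.0027), and with PFKP (0.78 ± 0.22) was higher among 16 tested. Of 16 interferon-response genes, B2M, the light chain of MHC class I, was higher in clone 1, at 286.4, 255 and 319 TPM against 100.7, 86.8, 86.3 and 163.6 TPM in clone 3 (1.03 ± 0.24). Of 18 amino acid genes, SHMT1 was higher (2.79 ± 0.69) and ASS1 (-0.74 ± 0.18) and SLC7A3 (-0.62 ± 0.17) lower. Elsewhere SPRY4 (0.68 ± 0.17), KLF6 (0.83 ± 0.16), WNT5A (1.16 ± 0.25) and the tight junction gene CLDN4 (0.75 ± 0.20) were higher and the Notch target NRARP lower (-1.36 ± 0.38). The immediate early gene FOSB, at 0 in clone 1 and at 0.03 to 0.15 TPM in clone 3, was lower and lost its call in 5 of the 7 fits that left out 1 library. Of the other genes of these lists, LDHA and KLF6 kept their call whichever library was left out, and each of the other 9 lost it in 1 to 6 of the 7 such fits. None of 15 p53 targets passed edgeR's test (0 at an unadjusted p under 0.05 and 0 by DESeq2 or limma), none of 9 regulators of apoptosis did (2 unadjusted, 2 by DESeq2 and 0 by limma), and none of 16 genes of cholesterol synthesis did (4 unadjusted, 0 by DESeq2 and 1 by limma).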

How the data were processed

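RNA was measured by bulk RNA-seq, from QIAGEN RNeasy Plus Mini extracts and ligation-mediated sequencing libraries per the labels. Per the submitters' processing notes, bcl2fastq, RSEM 1.2.3, Bowtie 1.2.3 and the build Sscrofa11.1 were used. The authors' deposited values are gene-level expected counts without normalisation, and TPM in a second table. Strand handling is not given in the sources used here, and overlapping or antisense genes may share reads.

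For the count model each value was rounded, a change of 0.00373% of all counts. The 15 libraries of clones 1 to 3 and fibroblasts entered 1 edgeR 4.0.16 quasi-likelihood model (R 4.3.3, TMM scaling, filterByExpr with a minimum count of 10, Benjamini-Hochberg over all genes tested, threshold 0.05). SE is the log2 difference divided by the root of the test's F. The departure test removed the chromosome median through the offsets of chromosome 17 genes. DESeq2 1.42.0 and limma 3.58.1 served as alternatives, and the fits were tested on simulated data. Gene positions came from RefSeq (Sscrofa11.1) by symbol for 20597 of 20683 genes, by synonym for 4, and 19502 had 1 position on a chromosome. NANOG and B2M had no single position.

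The genes named are those of 27 lists that pass, the core factors, the human chromosome 20 gain list, the 15 highest and 15 lowest of at least 10 TPM off chromosome 17, the departures of at least 5 TPM, and genes silent in 1 clone. The 15 highest and 15 lowest were also required to have no overlap between the libraries of the clones. Some members that passed are not reported here. The members and lists were chosen with earlier results of these data known. The shift of each library on chromosome 17 is set against the mean of clone 2. Replicate numbers were not used to pair the clones in the main fit.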

Additional observations from a re-analysis of the deposited data

Results flagged for a closer look

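In clone 3, 12 of 102 values tested had 1 of the 4 libraries far from the other 3, where chance flags about 1 in 20 groups. Clone 1, with 3 libraries, was not tested. Replicate 1 held 8 of the 12. It had the fewest genes with a count (14351), the lowest PCNA level (332.5 TPM) and the highest levels of LEFTY2 (50.3 TPM), ID3 (589.2 TPM), F3 (8.39 TPM), COL5A2 (17.99 TPM), ATP9A (36.47 TPM) and OTX1 (0.59 TPM). Replicate 2 had the highest TCEAL2 level (0.96 TPM). Replicate 3 had the highest PCDH11X level (6.44 TPM). Replicate 4 had the highest SHISA2 level (1.83 TPM) and the lowest NES level (68.42 TPM). Without clone 3 replicate 1, PCNA, LEFTY2, ID3, F3 and COL5A2 kept their call, OTX1 lost it, and the departure of ATP9A from the chromosome 17 median kept it.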

How the results depend on the processing

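The median of chromosome 17 was negative under all 19 alternatives. It was -0.395 with limma on log2(TPM + 1), -0.589 with no filter and -0.634 with the replicate number as a block, and -0.599 to -0.523 when 1 library was left out. Counts of calls moved more. Against 982 genes in all, 866 off chromosome 17, 96 on it and 21 departures, the 11 libraries of clones 1 to 3 gave 1987, 1787, 159 and 52. DESeq2 gave 1877 in all, 1703 off chromosome 17 and 44 departures. Similar totals could hold other genes. The 7 libraries of clones 1 and 3 alone gave 967 calls, 649 of them among the 982, with 521 higher and 446 lower in clone 1. Of their 18 departures, 12 upward and 6 downward, 10 were among the 21. With limma on log2(TPM + 1), 665 of 1057 calls and 5 of 30 departures were shared with the main fit. With clone 3 replicates 2 and 3 summed into 1 library the counts were 450, 383, 60 and 6, and at a minimum fold change of 2 they were 89, 85, 3 and 2. Genes of at least 1 TPM on average, an alternative chosen after seeing the data, gave 13 departures. When 1 library was left out, the ranges were 435 to 1332 in all, 371 to 1197 off chromosome 17, 58 to 104 on it and 3 to 42 departures. Deviations of same-numbered libraries from the means of their clones correlated at -0.017 to 0.076 over 3 pairs, the highest being that of the replicates numbered 4. So few pairs cannot exclude a pairing by number. With the replicate block the counts were 1598 in all, 1444 off chromosome 17 and 54 departures. BCL2L1 changed sign with limma, to 0.00697 with a pseudocount of 0.1 and 0.00703 with a pseudocount of 1. The cause of these changes was not tested, apart from the fewer libraries or genes that an alternative itself sets. Of 79 named differences that passed, 48 passed whichever library was left out, and of 10 named departures none did. Genes under 1 TPM are limited by depth.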

Other observations

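Regional medians off chromosome 17 lay between -0.39 and 0.31. The window at chr1:50000001-60000000 had a median log2 difference of -0.390 over 41 genes, of which 28 were below 0 and 0 were called. That is near the -0.394 of the last chromosome 17 window, where 40 of 46 genes were below 0 and 4 were called lower. The window at chrX:110000001-120000000 had 0.31 over 37 genes. EIF1AY, the 1 tested gene of the list of X-silencing and Y-linked genes, had a log2 difference of 0.08, so both clones carried Y-linked RNA, at 63.9 to 116.2 TPM in clone 1 and 73.8 to 90.7 TPM in clone 3. It was at 0 in the 4 fibroblast libraries used for context, and the median Y gene was higher than in fibroblasts by 7.64 in clone 1 and 8.07 in clone 3 on the log2 scale.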
